A study of Mus musculus with 10 samples.

Results

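The mitochondrial genome of the mouse carried 37 of the 52636 genes in the deposited table, and all 37 were taken by their chromosome (MT). They were 13 protein-coding genes (mRNAs), 2 ribosomal RNAs (rRNAs) and 22 transfer RNAs (tRNAs). Their RNA was compared in the hippocampus of C57BL/6 mice aged 3 months, in 5 libraries of Tshr-/- mice, which lack the receptor for thyroid-stimulating hormone, and 5 libraries of wild type. The study dealt with how mice learn and remember places. The labels call the libraries of a genotype biological replicates and do not say whether each is 1 animal, so that p-values measure the spread between these samples. The labels also do not say which part of Tshr was deleted, or whether the mutant mice, in which the thyroid gland lacks its main stimulus, were given thyroid hormone.

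Mitochondrial DNA is a small circle whose 2 strands are copied into long precursor RNAs. Transfer RNAs lie between most of the other genes, and cutting them out of the precursor frees the mRNAs and rRNAs. The mRNAs encode core subunits of the respiratory chain and of ATP synthase, which brain tissue relies on for most of its ATP. The other subunits and every protein that copies, cuts and translates mitochondrial RNA are encoded in the nucleus.

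The libraries held between 23899650 and 33529811 reads assigned to genes. The deleted gene itself, Tshr, was near the detection limit, with 7 reads in all of Tshr-/- against 32 in all of wild type. By library there were 0, 0, 0, 5 and 2 reads in Tshr-/- and 9, 12, 7, 2 and 2 in wild type, with overlap. The 8 markers of hippocampal neurons, such as Prox1 and Wfs1, were all detected, with a summed level of 180 to 281 FPKM in Tshr-/- and 273 to 372 FPKM in wild type. FPKM is the number of fragments scaled by gene length and library size. The library size behind these FPKM averaged 2.79e+07 in Tshr-/- and 2.74e+07 in wild type. The reads assigned to genes averaged 2.71e+07 and 2.80e+07, so it was not their sum. Differences scaled to the reads of nuclear genes therefore came out higher than those in FPKM. The 8 markers of the neighbouring thalamus and habenula summed to 29.1 to 221 FPKM in Tshr-/- and 17.0 to 102 FPKM in wild type, and were above the mean of all libraries in Tshr-/- libraries 1 and 2 and wild-type libraries 2 and 5. The 9 choroid plexus markers summed to 2258 FPKM in Tshr-/- library 4 and to at most 89.5 FPKM in the other 9 libraries. On the log2 scale, Tshr-/- was lower than wild type for all 8 hippocampal markers. It was higher for all 8 markers of thalamus and habenula and for 8 of the 9 of choroid plexus. All 6 ependymal markers and all 7 of the meninges were also higher in Tshr-/-. The markers of oligodendrocytes, astrocytes, microglia and endothelium went both ways. So did 5 RNAs kept in the nucleus, such as Malat1, which summed to 551 FPKM in wild-type library 4 and to at most 373 FPKM elsewhere. None of these markers passed the test between genotypes, and their part in the values below was not tested. Some values are also given for the 6 libraries low in thalamic markers, a choice made after the data were seen, which leaves in Tshr-/- library 4.

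Mitochondrial genes supplied a similar share of the reads in both genotypes. They took 4.29%, 4.08%, 3.70%, 4.20% and 3.18% of the reads in Tshr-/- libraries 1 to 5, and 3.61%, 4.50%, 3.57%, 3.97% and 3.91% in wild-type libraries 1 to 5. The groups overlapped, with Tshr-/- library 5 lowest of all and wild-type library 2 highest of all. The means were 3.89% ± 0.455 (SD, n = 5) and 3.91% ± 0.374 (SD, n = 5). In tissue made of many cell types, fewer cells of a type rich in mitochondria and less mitochondrial RNA per cell cannot be told apart. The mRNAs made up 86.5% ± 0.886 of the mitochondrial reads in Tshr-/- and 84.9% ± 0.634 in wild type, and the tRNAs 0.259% ± 0.0287 and 0.263% ± 0.0469 (SD, n = 5 each).

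**Figure D1:**
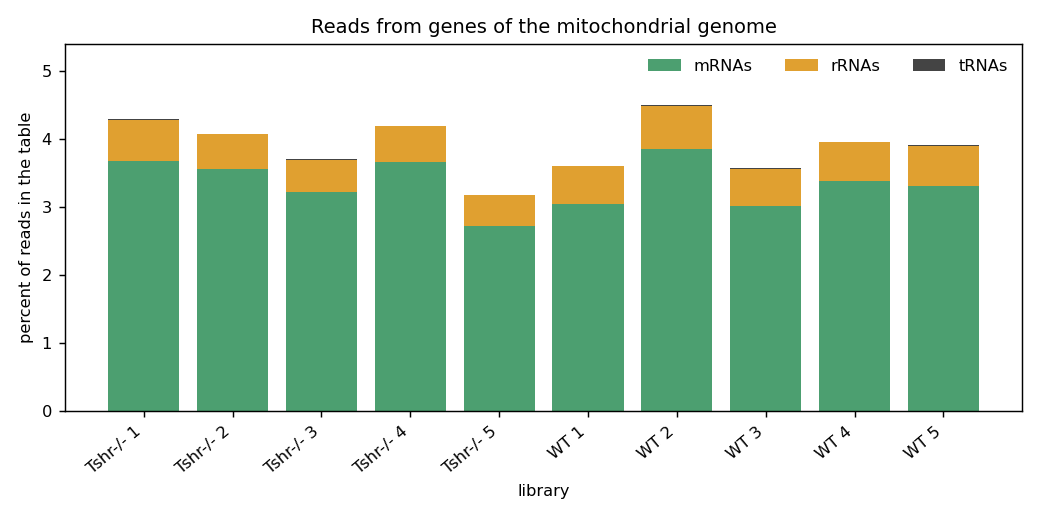
Percent of the reads in the table that came from mitochondrial mRNAs, rRNAs and tRNAs, stacked, in each of the 10 libraries (WT, wild type). Tshr-/- library 5 is lowest at 3.18% and wild-type library 2 highest at 4.50%, and the tRNAs are barely visible at 0.00856% to 0.0127% of reads.

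No mitochondrial gene passed the test between genotypes. Of the 37 genes, 33 had a mean of at least 0.5 FPKM and were tested with limma among 15471 genes, and 0 had a Benjamini-Hochberg adjusted p under 0.05, against 0.0129% of all genes tested (2 genes). At an unadjusted p under 0.05 there were 4 mitochondrial genes, or 12.1% of the 33, beside 13.0% of all genes tested. The 4 were mt-Rnr1, mt-Rnr2 and mt-Tp, with lower means in Tshr-/-, and mt-Tg, with a higher one; of all genes, 8.38% lay lower and 4.65% higher at that p. The tool limma voom, run on the reads, also called 0 mitochondrial genes and 6 genes in all. None of the 37 had groups without overlap, a pattern found for 2.68% of all genes tested (1.76% lower and 0.911% higher in Tshr-/-). The median difference over the 33 genes was 0.00 on the log2 scale, and over all genes tested it was -0.01. Differences are given throughout as Tshr-/- minus wild type on the scale of log2(FPKM + 0.1).

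**Figure D2:**
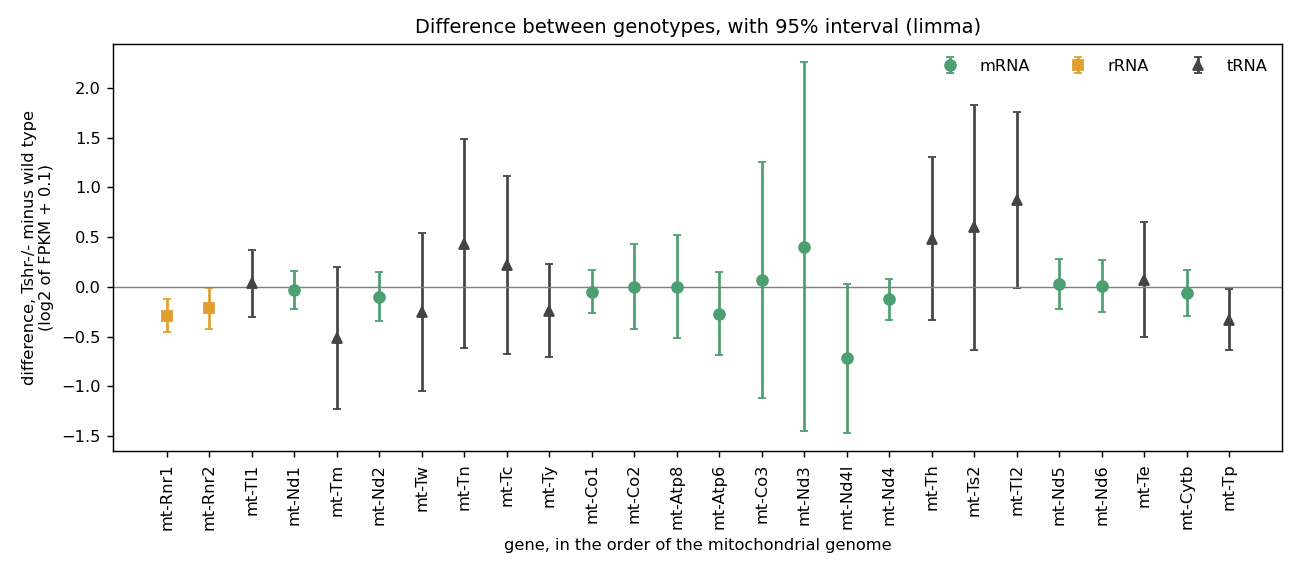
Difference between genotypes (Tshr-/- minus wild type, log2 of FPKM + 0.1) with its 95% interval from limma for the 26 genes tested that had a mean of at least 10 reads, in genome order. The intervals of mt-Rnr1, mt-Rnr2 and mt-Tp lie below 0 before adjustment, and the widest among the mRNAs are those of mt-Nd3 and mt-Co3.

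Among the 9 members with a mean above 1000 FPKM, the rRNAs had the smallest p-values. The gene mt-Rnr1 (ENSMUSG00000064337, MT:70-1024, plus strand, mm10) encodes the RNA of the small subunit of the mitochondrial ribosome. It stood at 2411, 1982, 1997, 2037 and 2074 FPKM in Tshr-/- libraries 1 to 5 and at 2624, 2632, 2626, 2355 and 2582 FPKM in wild-type libraries 1 to 5. Below every wild-type library lay 4 of Tshr-/-, and Tshr-/- library 1 lay just above wild-type library 4, the lowest of its group. The difference was -0.29 ± 0.08 (SE) on the log2 scale, with a 95% interval of -0.46 to -0.12 and an adjusted p of 0.187, which did not pass. Over the alternatives of processing this adjusted p ran from 0.143 with limma voom to 0.66 without a filter on low values, and the difference was -0.31 in the 6 libraries low in thalamic markers, -0.28 without Tshr-/- library 4, -0.22 when scaled to nuclear reads and -0.18 after quantile normalization.

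The gene mt-Rnr2 (ENSMUSG00000064339, MT:1094-2675, plus strand) encodes the RNA of the large subunit, in which peptide bonds are made. Its levels were 2230, 1836, 1789, 1939 and 1599 FPKM in Tshr-/- and 2124, 2403, 2004, 2146 and 2196 FPKM in wild type, in library order. Again Tshr-/- library 1 lay among the wild-type libraries and the other 4 lay below all of them. The difference was -0.22 ± 0.09 (SE), with an adjusted p of 0.363, which did not pass, and it was -0.01 after quantile normalization. That method keeps only the rank of a gene within its library, so it cannot show a difference that leaves ranks unchanged.

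Set against the mRNAs of the same libraries, the rRNA share had a lower mean in Tshr-/-, and the groups overlapped. The pair of rRNAs took 14.1%, 12.4%, 12.9%, 12.4% and 14.2% of mitochondrial reads in Tshr-/- and 15.4%, 14.1%, 15.3%, 14.2% and 15.1% in wild type. The means were 13.2% ± 0.866 and 14.8% ± 0.622 (SD, n = 5 each), with 3 Tshr-/- libraries below all of wild type and Tshr-/- libraries 1 and 5 within its range. Put as mRNA reads per rRNA read, the ratio was 6.09, 7.03, 6.74, 7.03 and 6.04 in Tshr-/- and 5.49, 6.10, 5.54, 6.03 and 5.60 in wild type. A sum over members was given no test. How far this share depends on the way RNA was selected for sequencing was not tested, so it may not be the balance of rRNA to mRNA in the tissue.

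A ratio within each library was also taken to mt-Nd1, the first mRNA after the rRNAs on the genome, for the 8 other genes with a mean above 1000 FPKM. These ratios were chosen after the values were seen, and they are a description. The ratio of mt-Rnr2 to mt-Nd1 in FPKM was 0.445, 0.401, 0.418, 0.392 and 0.388 in Tshr-/- and 0.478, 0.478, 0.459, 0.447 and 0.462 in wild type. It was the only one of the 8 ratios whose groups did not overlap, by a margin of 0.445 against 0.447, where 1.51% of all genes tested had no overlap in their ratio to mt-Nd1, and 0.265% were lower in every Tshr-/- library. The ratio of mt-Rnr1 to mt-Nd1 was 0.459 ± 0.0367 in Tshr-/- and 0.550 ± 0.0463 in wild type (SD, n = 5 each), with 4 Tshr-/- libraries below all of wild type.

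**Figure D3:**
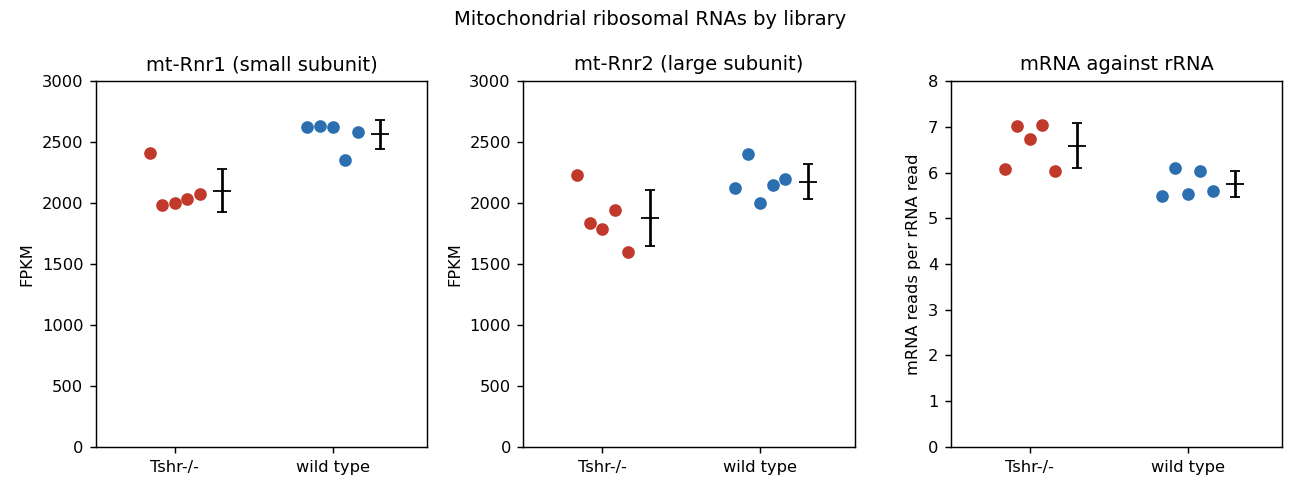
FPKM of mt-Rnr1 and mt-Rnr2 and the number of mitochondrial mRNA reads per mitochondrial rRNA read. Each point is a library and the bar beside each group is the mean ± SD of its 5 libraries. In both rRNA panels Tshr-/- library 1, at 2411 and 2230 FPKM, stands above the other 4 of its genotype.

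The 13 mRNAs fell into 2 ranges of level. Of these, 7 lay between 1538 and 8300 FPKM on average over the 10 libraries and varied little, with coefficients of variation of 7.0% to 12.8%. The other 6 lay between 22.2 and 210 FPKM and varied by 23.2% to 84.3%. The median difference of the 13 between genotypes was -0.03 on the log2 scale, and 0 passed the test.

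Complex I takes electrons from NADH, and 7 of the mRNAs encode its membrane subunits. The level of mt-Nd1 was 5016, 4573, 4275, 4941 and 4117 FPKM in Tshr-/- and 4446, 5028, 4362, 4798 and 4758 FPKM in wild type, and the groups overlapped. Its difference was -0.03, with a 95% interval of -0.22 to 0.16. The next subunits, mt-Nd2 (difference -0.10, interval -0.34 to 0.14) and mt-Nd4 (-0.13, interval -0.33 to 0.08), had means of 2621 ± 344 and 2083 ± 245 FPKM in Tshr-/- and 2801 ± 295 and 2265 ± 154 FPKM in wild type (SD, n = 5 each). For mt-Nd5, the longest mRNA at 1824 bases, the levels were 1866, 1818, 1726, 1824 and 1308 FPKM in Tshr-/- and 1521, 1968, 1531, 1706 and 1623 FPKM in wild type. Thus 4 Tshr-/- libraries lay above 4 of the wild-type libraries for mt-Nd5, and Tshr-/- library 5 lay below every other library, giving a difference of 0.03 (interval -0.22 to 0.28).

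The mt-Nd6 subunit is encoded on the opposite strand from the other 12 mRNAs. Its mean was 1543 ± 215 FPKM in Tshr-/- and 1533 ± 202 FPKM in wild type (SD, n = 5 each), a difference of 0.01 with an interval of -0.26 to 0.27. Its annotated end overlaps that of mt-Nd5 by 14 bases. The kit named in the labels does not mark the strand, so reads from either strand cannot be told apart, in this stretch or elsewhere. The levels of mt-Nd6 and of the 8 tRNAs on the minus strand may therefore include reads from the other strand.

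Complex III passes electrons to cytochrome c, and its single mitochondrial subunit, mt-Cytb, stood at 5542, 5187, 4984, 5656 and 4149 FPKM in Tshr-/- and 4989, 6135, 5038, 5327 and 5060 FPKM in wild type. The groups overlapped, and the difference was -0.06 (interval -0.29 to 0.17). Complex IV passes electrons to oxygen, and its catalytic subunit mt-Co1 was the most abundant member, with 38.5% of all mitochondrial mRNA reads on average. It stood at 8791, 8437, 8141, 8557 and 6872 FPKM in Tshr-/- and 8145, 9541, 7874, 8312 and 8327 FPKM in wild type. The difference was -0.05 (interval -0.27 to 0.17), and the groups overlapped.

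The 7 abundant mRNAs shared their extreme libraries. Wild-type library 2 was the highest and Tshr-/- library 5 the lowest of the 10 for 7 of 7 of them. The share of each of these 7 among the mitochondrial mRNA reads was steadier than its level. Over all 10 libraries, mt-Co1 took between 37.5% and 39.4% of the mitochondrial mRNA reads and mt-Cytb between 17.4% and 18.4%. Within this total, mt-Nd5 took 9.50% ± 0.447 in Tshr-/- and 8.97% ± 0.272 in wild type, and mt-Nd4 took 8.76% ± 0.215 and 9.22% ± 0.236 (SD, n = 5 each), with overlap between the groups for both.

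**Figure D4:**
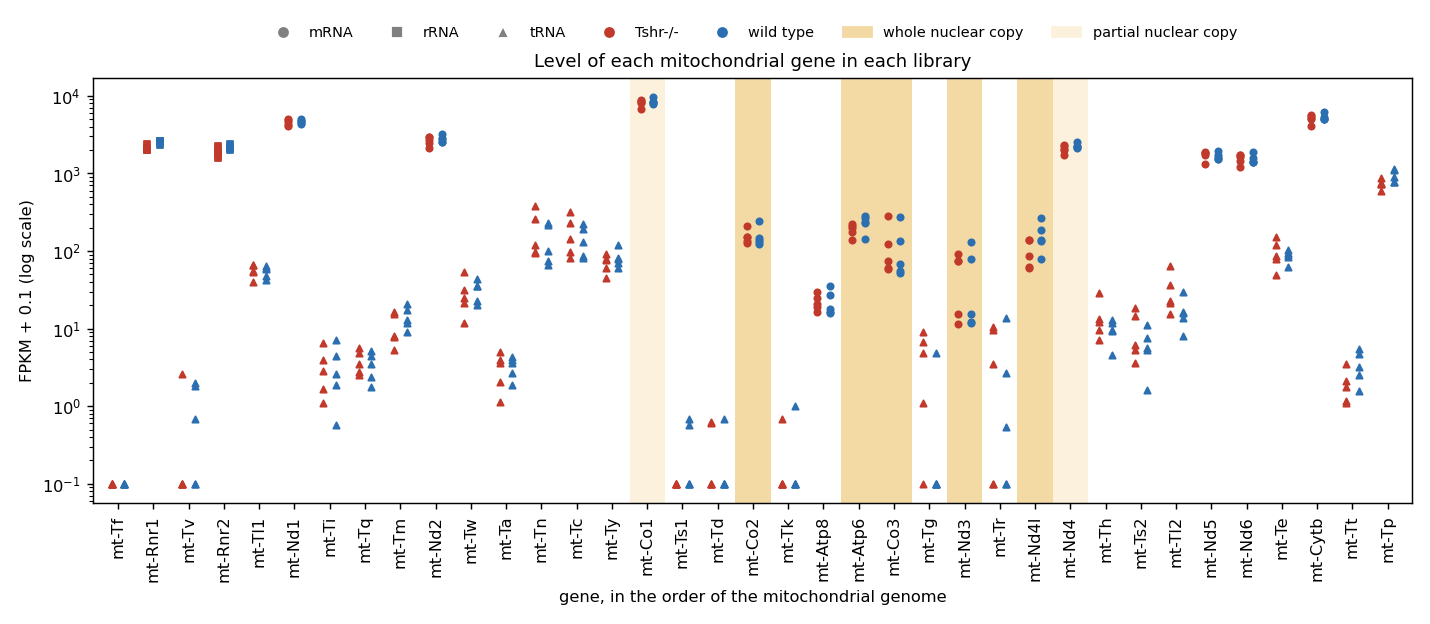
Level of each of the 37 mitochondrial genes in each library, in genome order, as FPKM + 0.1 on a log scale; points at the bottom are 0 reads. Shaded genes have an annotated near-identical copy on chromosome 1. The 7 abundant mRNAs lie above 1000 FPKM and the 5 genes with a whole copy between 11.3 and 285 FPKM.

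Of the 6 low mRNAs, 5 have a near-whole copy in the nucleus. Fragments of mitochondrial DNA have been inserted into nuclear chromosomes during evolution, and annotated pieces of them are listed as pseudogenes. A search of the annotated mouse transcripts found 7 pseudogenes on the minus strand of chromosome 1 (1:24611535-24616197, mm10) with at least 99% identity to a mitochondrial gene. They lie in the same order as the mitochondrial genes, with the same spacing at 5 of 6 junctions and 1 base more at the other. Of these, 5 match nearly the whole of mt-Co2 (Gm28661), mt-Atp6 (Gm10925), mt-Co3 (Gm28437), mt-Nd3 (Gm28438) and mt-Nd4l (Gm10222). A read that lies within such a match, away from any mismatch, fits both places equally. The other 2 match 31.3% of mt-Co1 (Gm29216) and 63.6% of mt-Nd4 (Gm28439). The genes with a whole copy had means of 51.0 to 210 FPKM, and among the other mRNAs only mt-Atp8 was below 1000 FPKM. The sources used here do not give how reads that fit several places were counted, so the level of these genes may not be that of their RNA.

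The copies differ from their genes at very few bases. Gm28661, Gm10925, Gm28437, Gm10222 and Gm28439 had no mismatch over the aligned stretch, Gm29216 had 1 (A1066T, counted from the start of mt-Co1) and Gm28438 had 1. The first 48 bases of mt-Nd3 (MT:9459-9506, plus strand) and of Gm28438 (1:24613072-24613119, minus strand) are shown because they hold the single base that separates this pair, T3C counted from the start of mt-Nd3, in capitals:

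mt-Nd3: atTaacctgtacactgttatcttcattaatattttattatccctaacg

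Gm28438: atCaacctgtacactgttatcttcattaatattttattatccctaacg

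The values of this pair split the libraries in a way that crossed the genotypes. The complex I subunit mt-Nd3 (ENSMUSG00000064360, MT:9459-9806) stood at 15.2, 11.3, 73.7, 91.4 and 73.6 FPKM in Tshr-/- libraries 1 to 5 and at 11.5, 15.2, 11.9, 77.7 and 129 FPKM in wild-type libraries 1 to 5. Gm28438 stood at 141, 103, 11.8, 12.8 and 9.63 FPKM in Tshr-/- and at 127, 137, 119, 126 and 9.31 FPKM in wild type. The gene was high in 5 libraries and near 10 FPKM in the other 5, and its copy was low in 4 of the 5 where the gene was high. Wild-type library 4 was high in both.

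As a share of the reads of both, mt-Nd3 took 9.79%, 10%, 86.3%, 87.8% and 88.5% in Tshr-/- and 8.42%, 10.1%, 9.13%, 38.4% and 93.3% in wild type. The difference of mt-Nd3 alone was 0.40 ± 0.84 (SE), with a 95% interval of -1.45 to 2.25. It ran from 0.07 without wild-type library 1 to 0.94 without wild-type library 5, and was 1.84 in the 6 libraries low in thalamic markers. With the reads of each copy added to its gene, an alternative chosen after the values were seen, the difference turned to -0.51 ± 0.17 (SE), with an interval of -0.89 to -0.12 and a limma adjusted p of 0.275. The reads of both together came to 109 ± 29.6 FPKM in Tshr-/- and 153 ± 29.5 FPKM in wild type (SD, n = 5 each), and 4 Tshr-/- libraries lay below all of wild type. By library this sum ran from 83.2 to 204 FPKM, where the 7 abundant mRNAs had means of 1538 to 8300 FPKM. Whether it holds all reads that fit both places was not tested, so it may not be the level of mt-Nd3 RNA. No value of mt-Nd3 passed the test.

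**Figure D5:**
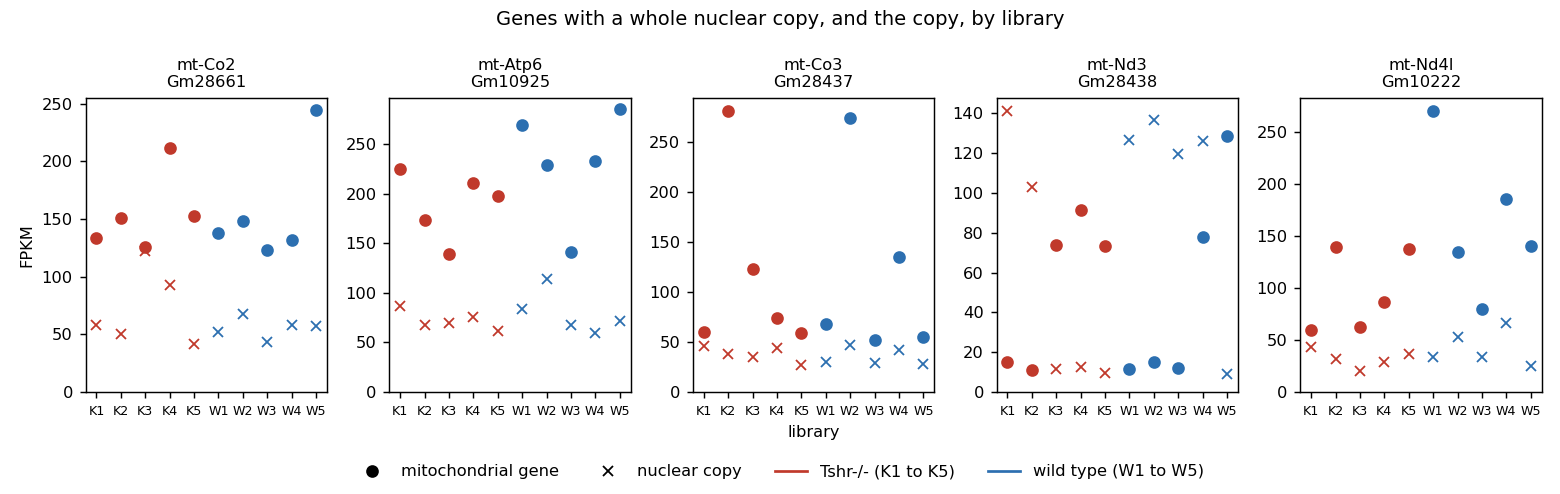
FPKM of the 5 genes with a whole nuclear copy (filled points) and of the copy (crosses) in Tshr-/- libraries 1 to 5 (K1 to K5) and wild-type libraries 1 to 5 (W1 to W5), each panel with its own axis from 0. In the mt-Nd3 panel gene and copy change places between libraries, with Gm28438 between 103 and 141 FPKM in 6 libraries and below 13 FPKM in 4.

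The tRNAs on either side of mt-Nd3 had their reads in nearly the same libraries. The glycine tRNA mt-Tg, just before it, had 2, 0, 16, 12 and 9 reads in Tshr-/- and 0, 0, 0, 0 and 8 reads in wild type. The arginine tRNA mt-Tr, just after it, had 0, 0, 6, 19 and 18 reads in Tshr-/- and 0, 1, 4, 0 and 23 reads in wild type. Both were highest in the 4 libraries in which Gm28438 was low. Both tRNAs lie inside the mitochondrial stretch that the chromosome 1 copies span (MT:6390-11042), as do mt-Ts1, mt-Td, mt-Tk and mt-Atp8. The sequence between the annotated copies was not compared. Whether reads of these genes also fit chromosome 1 was therefore not tested, and their levels may share the limit of mt-Nd3. The adjusted p of mt-Tg was 0.372 with limma, on a mean of 4.70 reads. In the 6 libraries low in thalamic markers, Tshr-/- 3 to 5 and wild type 1, 3 and 4, it was 0.000789. There the 3 wild-type libraries have 0 reads of mt-Tg, and the gene passed the filter on low values only through the Tshr-/- libraries, so this p is no support for a difference. A count of 0 allows up to 3 reads per library, and wild-type library 5, with 8, is not among these 6.

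Single libraries also stood far from the rest for mt-Co3 and mt-Co2. The complex IV subunit mt-Co3 stood at 59.8, 281, 123, 74.4 and 58.6 FPKM in Tshr-/- and at 67.7, 274, 52.4, 135 and 54.8 FPKM in wild type. It was thus at least 2 times as high in library 2 of each genotype as in any other library, while its copy Gm28437 lay between 26.8 and 46.8 FPKM. The difference of mt-Co3 was 0.07 ± 0.54 (SE). The subunit mt-Co2, which receives the electrons from cytochrome c, stood at 134, 151, 126, 212 and 153 FPKM in Tshr-/- and 138, 149, 123, 132 and 245 FPKM in wild type, a difference of 0.00 ± 0.19 (SE). Its copy Gm28661 reached 122 and 93.2 FPKM in Tshr-/- libraries 3 and 4 and lay between 41.4 and 68.0 FPKM elsewhere.

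For the complex I subunit mt-Nd4l the levels were 60.1, 140, 62.6, 86.1 and 137 FPKM in Tshr-/- and 270, 135, 79.7, 185 and 140 FPKM in wild type. Tshr-/- libraries 1, 3 and 4 were below 90 FPKM, as was wild-type library 3, and the groups overlapped. The difference was -0.72 ± 0.34 (SE), the smallest adjusted p among the mRNAs at 0.399, and -0.64 ± 0.28 (SE) with the copy added, at an adjusted p of 0.370. Neither passed.

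ATP synthase lets protons back across the inner membrane, and 2 subunits of its membrane part are encoded by overlapping mitochondrial genes. The overlap of mt-Atp8 and mt-Atp6 is printed because reads within its 43 bases (MT:7927-7969, plus strand) fit both genes, with the first codon of mt-Atp6 in capitals:

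mt-Atp8 and mt-Atp6 overlap: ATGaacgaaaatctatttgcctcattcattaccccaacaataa

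The mt-Atp6 level was 225, 174, 139, 211 and 197 FPKM in Tshr-/- and 269, 229, 141, 233 and 285 FPKM in wild type, with wild-type library 3 among the Tshr-/- libraries. The difference was -0.27 ± 0.19 (SE), with an adjusted p of 0.564, and ran from -0.44 without wild-type library 3 to -0.17 without Tshr-/- library 3. The short mt-Atp8 was the lowest mRNA, with 16.5 to 29.5 FPKM in Tshr-/- and 16 to 35.1 FPKM in wild type and a difference of 0.00 ± 0.23 (SE). No annotated copy of mt-Atp8 was found, although the gap between Gm28661 and Gm10925 has the same 233 bases as the stretch between the matched parts of mt-Co2 and mt-Atp6, where mt-Atp8 begins.

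Transfer RNAs carry amino acids to the ribosome and, at 59 to 75 bases here, are the shortest members. Of the 22, mt-Tf had 0 reads in all 10 libraries, and mt-Ts1, mt-Td and mt-Tk had at most 2 reads in any library; these 4 were not tested. Another 7 were tested on a mean of under 10 reads, and 11 had more. Reads of tRNAs cut free and of uncut precursor RNA were not told apart. The FPKM of these short genes may therefore not rank the tRNAs by their amount. The proline tRNA mt-Tp (ENSMUSG00000064372) had the highest mean FPKM of the 22. Its sequence (MT:15356-15422, minus strand) is shown with the anticodon in capitals:

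mt-Tp: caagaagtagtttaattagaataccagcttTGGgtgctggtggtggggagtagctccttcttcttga

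It stood at 590, 742, 763, 727 and 873 FPKM in Tshr-/- and 1096, 771, 906, 1147 and 765 FPKM in wild type. Here 4 Tshr-/- libraries lay below all of wild type, and Tshr-/- library 5 lay above 2 of its libraries. The difference was -0.33 ± 0.14 (SE), with an adjusted p of 0.350, which did not pass, and it was -0.09 after quantile normalization.

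The next highest in mean FPKM were neighbours on the minus strand between mt-Nd2 and mt-Co1, mt-Tn for asparagine and mt-Tc for cysteine. They are printed, with anticodons in capitals, because they were high in the same libraries (MT:5089-5159 and MT:5192-5257):

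mt-Tn: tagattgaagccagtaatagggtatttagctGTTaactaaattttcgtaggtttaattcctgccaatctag

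mt-Tc: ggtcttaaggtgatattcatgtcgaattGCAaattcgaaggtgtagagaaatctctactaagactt

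The level of mt-Tn was 385, 97.6, 121, 255 and 95.1 FPKM in Tshr-/- and 66.7, 74.6, 101, 213 and 228 FPKM in wild type. That of mt-Tc was 317, 97.3, 144, 232 and 82.1 FPKM in Tshr-/- and 82.1, 85.6, 130, 191 and 225 FPKM in wild type. Both were highest in Tshr-/- libraries 1 and 4 and wild-type libraries 4 and 5, so the high libraries came from both genotypes. Their differences were 0.43 ± 0.48 and 0.22 ± 0.41 (SE), and 0.12 and -0.04 without Tshr-/- library 1.

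Among the 11 tRNAs with at least 10 reads, Tshr-/- library 1 was the highest library for 7 and Tshr-/- library 5 the lowest for 5. The remaining 8 of these, mt-Tl1, mt-Tm, mt-Tw, mt-Ty, mt-Th, mt-Ts2, mt-Tl2 and mt-Te, had differences from -0.52 (mt-Tm) to 0.87 (mt-Tl2). Without Tshr-/- library 5 that of mt-Tm was -0.31, and without Tshr-/- library 1 that of mt-Tl2 was 0.58. For mt-Tl2, a leucine tRNA, the mean was 32.0 ± 19.2 FPKM in Tshr-/- and 16.7 ± 7.86 FPKM in wild type (SD, n = 5 each), with an adjusted p of 0.389.

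The nuclear genes that serve the mitochondrial genome gave 0 calls in every list examined. Among 18 tested factors that copy or transcribe mitochondrial DNA, 7 differences were above 0 and 11 below, with a median of -0.02 on the log2 scale. The smallest p-values in this list belonged to Mgme1, a nuclease that trims mitochondrial DNA ends (1.79 ± 0.282 FPKM in Tshr-/- and 2.18 ± 0.215 in wild type), and Tfb1m, which methylates the small rRNA (2.85 ± 0.433 and 2.42 ± 0.335 FPKM). Among 36 genes that process, modify or degrade mitochondrial RNA, 16 differences were above 0 and 20 below, and the median was -0.01. Nsun3, which modifies the methionine tRNA, stood at 2.05 ± 0.199 and 1.77 ± 0.160 FPKM, and Ptcd1, an RNA-binding protein, at 9.21 ± 1.44 and 10.7 ± 1.37 FPKM (SD, n = 5 each).

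Of 78 tested proteins of the mitochondrial ribosome, whose rRNAs are the pair described above, 61 differences were below 0 and 17 above, with a median of -0.05, where 8244 of all 15471 genes tested were below 0 and their median was -0.01. None passed, and 6 had an unadjusted p under 0.05, or 7.69% beside 13.0% of all genes. The large-subunit protein Mrpl45, named for its small p, stood at 9.91 ± 0.459 FPKM in Tshr-/- and 11.1 ± 0.179 FPKM in wild type (SD, n = 5 each). Its groups did not overlap, where 1.76% of all genes tested were lower in every Tshr-/- library, and its limma adjusted p was 0.200. Mrpl4 stood at 16.1 ± 1.33 and 18.9 ± 2.29 FPKM. The 20 mitochondrial aminoacyl-tRNA synthetases, which load the tRNAs, had 4 differences above 0 and 16 below. Among them Ears2 was at 1.34 ± 0.0639 and 1.54 ± 0.0983 FPKM and Aars2 at 10.4 ± 1.15 and 11.5 ± 1.22 FPKM. Of 12 translation factors, 3 were above 0 and 9 below, with the elongation factor Tufm at 23.4 ± 0.755 and 25.4 ± 1.53 FPKM and Guf1, which also binds the ribosome, at 3.08 ± 0.194 and 2.63 ± 0.444 FPKM.

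Of 10 regulators of mitochondrial biogenesis, 3 differences were above 0 and 7 below, with a median of -0.10 and 2, or 20% beside 13.0% of all genes, at an unadjusted p under 0.05. The nuclear receptor Esrra, which drives respiratory genes, had 28.4 ± 1.37 FPKM in Tshr-/- and 36.2 ± 4.54 FPKM in wild type (SD, n = 5 each). Every Tshr-/- library lay below every wild-type library for Esrra, as for 1.76% of all genes tested, and Esrra was named for its small p. The difference was -0.34 ± 0.08 (SE) and the limma adjusted p of 0.176 did not pass. Nrf1, a transcription factor of the same genes, stood at 1.61 ± 0.146 and 1.85 ± 0.115 FPKM. In the list of 13 mitochondrial chaperones and proteases, 5 were above 0 and 8 below. The co-chaperonin Hspe1 was at 39.9 ± 1.85 and 44.4 ± 2.29 FPKM, and Dnaja3 at 15.4 ± 0.562 and 16.1 ± 0.386 FPKM.

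The nuclear partners of the mitochondrial subunits gave a summed level of 7311 ± 235 FPKM in Tshr-/- and 7582 ± 372 FPKM in wild type (SD, n = 5 each), with overlap. Of these 76 genes, 19 differences were above 0 and 57 below, 0 passed, and the median was -0.02. Of all 15471 genes tested, 8244 were below 0. Scaled to nuclear reads, the median of all genes moved from -0.01 to 0.06, by more than the size of this median. The counts of signs in this list and the lists above were not taken on that scale. By complex, 27 of 36 nuclear subunits of complex I, 8 of 9 of complex III, 8 of 11 of complex IV and 12 of 16 of ATP synthase had a difference below 0. In complex II, which has no mitochondrial gene, it was 2 of 4. The smallest p in each belonged to Ndufb8 (24.2 ± 0.945 and 27.0 ± 2.12 FPKM), Uqcr11 (151 ± 9.53 and 162 ± 9.15 FPKM), Cox6a1 (803 ± 49.1 and 904 ± 82.8 FPKM), Atp5o (62.4 ± 3.25 and 66.8 ± 7.45 FPKM) and Sdhc (17.6 ± 1.09 and 16.6 ± 1.0 FPKM), in Tshr-/- and wild type. Their differences were -0.15, -0.10, -0.17, -0.09 and 0.09 on the log2 scale.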

How the data were processed

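Hippocampal RNA of 5 Tshr-/- and 5 wild-type samples was sequenced. The submitters' processing notes name HISAT2 2.0.5, featureCounts 1.5.0-p3 and the build mm10; the sources used here give no annotation release. The authors deposited 1 table of FPKM values with gene lengths and coordinates. FPKM times length gave whole reads for 100% of values (tolerance 0.01), which were used as read numbers. Genes with a mean of at least 0.5 FPKM were tested in R 4.3.3 with limma 3.58.1 on log2(FPKM + 0.1), with a mean-variance trend and Benjamini-Hochberg adjustment over all genes tested. Fold changes of low genes are understated on this scale. Copies were searched with BLAST 2.17.0 among GENCODE transcripts, with at least 95% identity over 60 bases, and those of at least 99% described. All 37 gene coordinates matched GENCODE. Steps were tested on simulated data. The members and gene lists were chosen with earlier results of these data known. The naming rule took every mRNA and rRNA, tRNAs with a mean of at least 10 reads, and in each list up to 4 genes with the smallest p; mt-Tg and mt-Tr were named after their values were seen.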

Additional observations from a re-analysis of the deposited data

Results flagged for a closer look

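In 110 groups of 5 libraries (either genotype, for members with at least 10 reads, shares of reads, nuclear copies and the nuclear genes named), 8 single values stood far from the other 4 of their group. Chance alone gives this in about 1 of 20 groups. Tshr-/- library 1 was highest for mt-Rnr1 at 2411 FPKM, against 1982 to 2074 in the other 4, and wild-type library 4 was lowest for mt-Rnr1 at 2355 FPKM, against 2582 to 2632. Tshr-/- library 1 was also highest for mt-Th, at 29.0 FPKM against 7.01 to 13.4. Wild-type library 2 was highest for mt-Co1 at 9541 FPKM, and Tshr-/- library 5 lowest for mt-Nd5 at 1308 FPKM. The remaining 3 concern genes with a whole nuclear copy or the copy itself: mt-Co2 in wild-type library 5 (245 FPKM, against 123 to 149), mt-Co3 in Tshr-/- library 2 (281 FPKM, against 58.6 to 123) and Gm28438 in wild-type library 5 (9.31 FPKM, against 119 to 137).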

How the results depend on the processing

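The count of mitochondrial genes called stayed at 0 with every alternative but one: in the 6 libraries low in thalamic markers, a choice made after seeing the data, it was 1 (mt-Tg). Counts over all genes moved more. From 2, they came to 14 with a pseudocount of 0.01, 4 without a filter, 13 at a mean FPKM of at least 1, 18 at a mean of at least 10 reads, 13 with median-ratio scaling, 4 with quantile normalization, 13 when scaled to nuclear reads, 1 without a variance trend, 13 with robust empirical Bayes, 6 with limma voom and 13 with the copies' reads added; leaving out 1 library gave 0 to 9. Scaling to nuclear reads put the median of all genes at 0.06. Near-0 differences changed sign: scaled to nuclear reads mt-Nd1 was 0.038, mt-Co1 0.019 and mt-Cytb 0.00842; after quantile normalization mt-Nd2 was 0.084 and mt-Nd4 0.092; in the 6 libraries mt-Tl1 was -0.038, mt-Nd6 -0.047 and mt-Te -0.0448. Larger differences turned as well: mt-Th went from 0.48 to -0.0883 in the 6 libraries, and mt-Nd3 from 0.40 to -0.51 with the copy's reads; the cause was not tested. In the 6 libraries mt-Ts2 was 0.18, mt-Tc 0.14, mt-Ty -0.37, mt-Co2 0.29 and mt-Atp8 0.23, and after quantile normalization mt-Ty was -0.14. The genes mt-Co1, mt-Cytb and mt-Nd1 each hold the same rank in every library. Quantile normalization therefore sets their differences to 0 and is no check of them. Quantile normalization or scaling to nuclear reads moved 12 of the 19 nuclear genes named by over 1.5 times. Leaving out 1 library gave ranges of -0.047 to 0.15 (mt-Tl1), -0.065 to 0.0061 (mt-Nd1), -0.52 to 0.028 (mt-Tw), -0.041 to 0.45 (mt-Tc), -0.079 to 0.0097 (mt-Co1), -0.12 to 0.17 (mt-Co2), -0.11 to 0.18 (mt-Atp8), -0.31 to 0.45 (mt-Co3), -0.0068 to 0.12 (mt-Nd5), -0.033 to 0.094 (mt-Nd6), -0.11 to 0.29 (mt-Te) and -0.10 to 0.011 (mt-Cytb). Without a change of sign they were 0.071 to 0.94 (mt-Nd3), -0.14 to -0.025 (mt-Nd2), -0.17 to -0.058 (mt-Nd4), -0.44 to -0.17 (mt-Atp6), 0.12 to 0.67 (mt-Tn), -0.71 to -0.31 (mt-Tm), 0.58 to 1.10 (mt-Tl2), 0.18 to 0.69 (mt-Th), 0.17 to 0.89 (mt-Ts2) and -0.34 to -0.090 (mt-Ty). The differences in the mitochondrial share of reads and in the rRNA share of mitochondrial reads, in percentage points, were -0.0195 (-0.119 to 0.158 without 1 library) and -1.60 (-1.85 to -1.41).

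Replicate numbers are shared between genotypes, but deviations of same-numbered libraries correlated at -0.063, 0.296, 0.076, 0.169 and -0.065 for numbers 1 to 5, and only numbers 2 and 4 matched best with their own, so the numbers were not taken to pair samples. With the replicate block, 0 mitochondrial genes and 3 genes in all were called. The quasi-likelihood count test was not run, because the deposited values are FPKM. At 0 to 23 reads, the values of the rarest tRNAs rest on few reads, and the cause of the low counts was not tested.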
